A study of Rattus norvegicus with 20 samples.

Results

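Chromosome 12 of the rat was described here through its CpG islands, a large share of which carried methylation in normal mammary gland. The members were all 3268 of the 93024 array probes placed on this chromosome in genome build rn4. After probes that were dim in the input channel had been left out, 3232 of these remained, and they formed 491 of the 13556 regions of the whole array (3.62%). A region was a run of at least 3 probes that started at most 500 bases apart. Regions are named r1 to r491 in their order along the chromosome. The chromosome was selected on its share of enriched islands and its difference in log2 ratio between carcinoma and normal gland, so both are given as a description, with no test.

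Each array held 1 tissue sample from a female F1 hybrid of Sprague-Dawley and Copenhagen rats, and there were 4 of normal mammary gland and 16 of mammary carcinoma. The treatment text of the labels covers rats left untreated and rats given 4 Gy of whole-body gamma rays from 137Cs when 7 weeks old, delivered at 0.5 Gy/min, and the carcinomas are described in the title as induced by radiation. The labels used here do not say whether the normal glands came from irradiated rats, so carcinoma and irradiation cannot be told apart in the comparison. The labels name no animals, so errors and p-values measure the spread between samples. Carcinomas 7 and 8 carry one sample code in their description and another in their deposited file, and the main means and counts are given without these 2 arrays too. Tissue identity was not checked, since the files used here pair the probes with no genes.

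CpG islands are short stretches dense in the dinucleotide CpG, and many of them lie at gene starts. Most islands stay free of methylation in normal tissue, while a minority is methylated, often inside genes, on the inactive X chromosome or at imprinted loci. In tumours, some islands that were free of methylation become methylated, while much of the rest of the genome loses it.

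On each array, methylated DNA, captured by a protein domain that binds methyl-CpG, carried Cy5, and unselected input DNA carried Cy3. The log2 ratio of Cy5 over Cy3, centred on the array's median, is thus high where an island is rich in methylated CpG. The range of these ratios differed between arrays, so a second scale was used, called linear position. It sets the commonest level of all regions on an array to 0 and the commonest level among its highest 15% of regions to 1, on unlogged ratios. A region over 0.5 is called enriched, and a region under 0.2 is called low. In bulk tissue, a lower share of methylated molecules in every cell and a different mix of cells cannot be told apart. On chromosome 12 the median raw signal lay between 73 and 135 units in Cy3 and between 64 and 146.75 units in Cy5, and no probe was saturated. Input signal was well above background for 91.9% to 99.2% of its probes, and enriched signal for 71.2% to 97.8%.

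In normal glands about 18% of the islands of chromosome 12 were enriched, against about 11% on the other 19 autosomes. The 4 glands stood at 17.1%, 18.9%, 18.1% and 19.1% (mean 18.3% ± 0.926, SD, n = 4). The other autosomes stood at 10.6% ± 0.528 (SD, n = 4). Every gland had a higher share on chromosome 12 than on the other autosomes together, by 7.77 percentage points ± 0.529 (SD, n = 4), and chromosome 12 ranked second of the 20 autosomes, after chromosome 20 at 20.9%.

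In carcinomas the enriched share of chromosome 12 was larger, with a lowest value of 17.9%, a median of 22.3% and a highest value of 28.1% (mean 22.6% ± 3.09, SD, n = 16). The groups overlapped: 14 of the 16 carcinomas stood above every normal gland, and carcinomas 2 and 3, at 18.5% and 17.9%, did not. Without carcinomas 7 and 8 the carcinoma mean was 22.2%. On the scan days that held both groups, the carcinoma mean exceeded that of the normal glands by 5.47 points on day 2 and by 4.28 points on day 3.

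The gap to the other autosomes was narrower in carcinomas, at 6.00 percentage points ± 0.902 (SD, n = 16), and it was 5.98 points without carcinomas 7 and 8. All 16 carcinomas lay below the lowest normal gland in this gap, though the nearest pair all but met. The other autosomes went from 10.6% to 16.6%, while chromosome 12 went up by 4.32 points, 1.24 times its normal share. That ratio ranked 19 of 20 among the autosomes. Chromosome 12 had rank 2 in 12 arrays and rank 3 in 8.

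**Figure D1:**
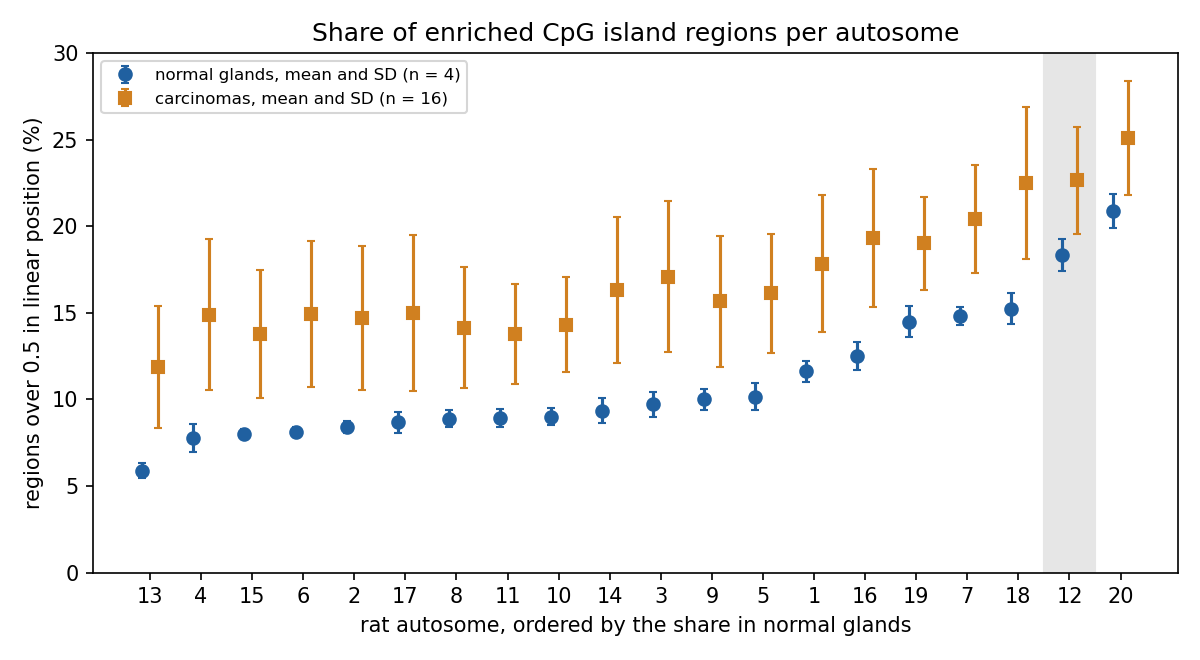
Mean share of regions over 0.5 in linear position (percent, vertical axis) on each autosome (horizontal axis, ordered by the normal share), with normal glands as circles, carcinomas as squares and bars for the SD. Chromosome 12, shaded, stood at 18.3% in normal glands and 22.6% in carcinomas, next to chromosome 20.

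The enriched islands were spread along the whole chromosome. In windows of 5 megabases, the share in normal glands ran from 12.1% ± 0.833 in window 4 (SD, n = 4; 60 regions) to 27.2% ± 1.47 in window 1 (34 regions), with window 10, at the far end, at 26.9% ± 4.44 (26 regions). All 10 windows lay above the median of 384 windows on the other autosomes, 8.02%. The chromosome also carried more regions per megabase than any other autosome, 10.5.

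Enriched islands mostly stood singly among low ones. There were 371 regions that were low in every normal gland (75.6%), 80 that were enriched in every one (16.3%) and 40 that were neither. The enriched ones were shorter, with a median of 421 bases against 597 in the low ones. The other autosomes showed the same order, with medians of 433 and 613 bases. On chromosome 12 the median number of probes was 5.5 in the enriched ones and 5 in the low ones. The next region after an enriched one was enriched in 20.2% of cases, against 18.2% of all regions, and 59 of the 71 rows of enriched neighbours held 1 region only. On the other autosomes the same figures were 19.3% and 10.5%.

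The longest row of enriched neighbours held 4 regions, r97 to r100, at chr12:11613844-11671498. Their mean linear position in normal glands ran from 0.582 to 1.26, and all 4 were over 0.5 in 16 of 16 carcinomas. The longest row of low neighbours held 26 regions, r52 to r77, over 2739 kilobases at chr12:7631480-10370826. Of these 26, 5 were over 0.5 in at least 1 carcinoma.

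**Figure D2:**
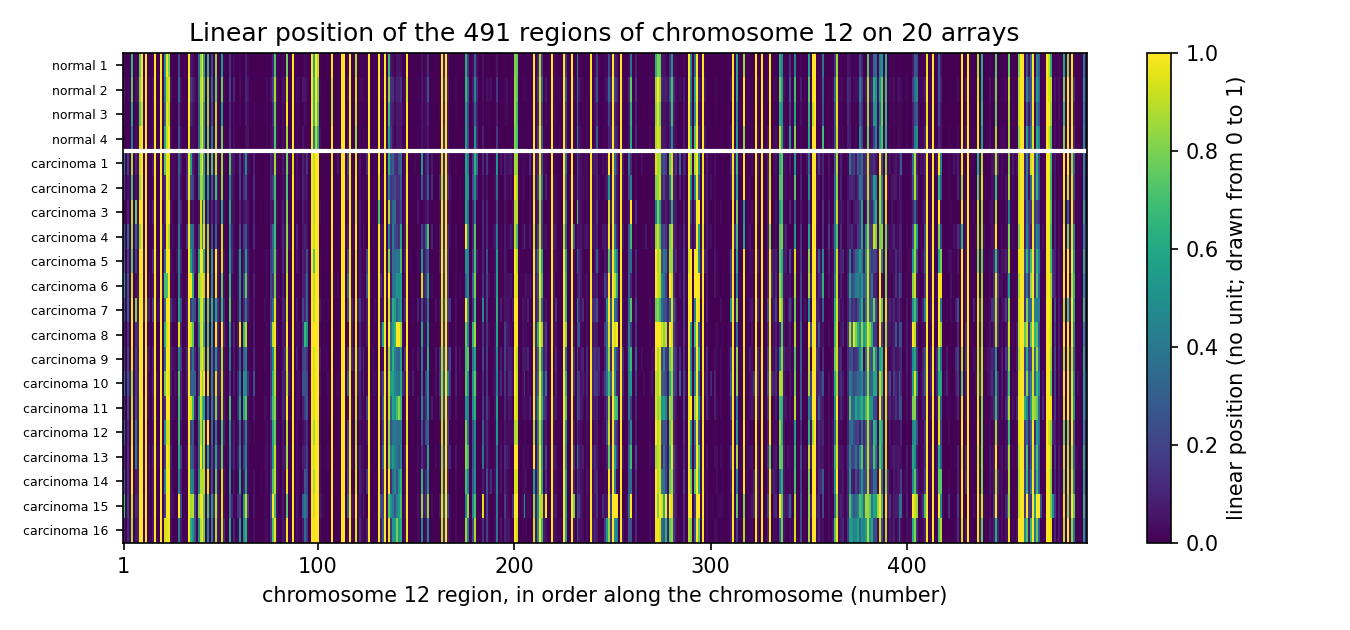
Linear position (colour, from 0 to 1, with values beyond drawn at the ends) of the 491 regions in their order along chromosome 12 (horizontal axis), for 4 normal glands above the white line and 16 carcinomas below it. Bright columns that run through all arrays are the islands enriched throughout; 69 of the 80 enriched in every normal gland were over 0.5 on all 20 arrays.

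On linear position, a scale set on each array by its own highest regions, enriched islands kept their state on nearly every array. Of the 80 enriched in every normal gland, 69 (86.3%) were over 0.5 in all 16 carcinomas too. On the other autosomes the share was 86.8%. The mean log2 ratio of the 80 was 4.67 ± 0.80 in normal glands (SD, n = 4) and 2.71 ± 0.48 in carcinomas (SD, n = 16). The level set to 1 stood at means of 4.67 and 2.72, so staying over 0.5 is partly built into the scale. Of the 80, 4 were under 0.2 in at least 1 carcinoma, namely r41, r48, r335 and r387, against 40 of 1189 on the other autosomes. Of these, r41 and r48 were under 0.2 in carcinoma 3 only, r335 in carcinoma 8 only, and r387 in carcinomas 6 and 8. Without carcinomas 7 and 8, r335 was thus not under 0.2 in any carcinoma. The mean share under 0.2 per carcinoma was 0.391% on chromosome 12 and 0.583% on the other autosomes. The levels of the 491 regions correlated between normal glands at r of 0.981 to 0.991 over 6 pairs, and between carcinomas at 0.849 to 0.974 over 120 pairs. These correlations run across regions of the same chromosome and are a description.

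On the log2 scale the chromosome as a whole stood lower in carcinomas. Its mean over all regions was 1.06, 0.75, 0.82 and 0.81 in the 4 normal glands (0.86 ± 0.13, SD, n = 4), and 0.31 at the lowest, 0.50 in the median and 0.66 at the highest in carcinomas (0.50 ± 0.10, SD, n = 16). All 16 carcinomas lay below every normal gland, as they also did on chromosomes 7, 10, 19 and 20. There the differences were -0.28, -0.15, -0.33 and -0.38. On chromosome 12 the difference was -0.36, with rank 2 of 20 among the falls, against -0.14 on the other autosomes together. Without carcinomas 7 and 8 it was -0.35. It was -0.29 on scan day 2 and -0.47 on scan day 3. With loess within each array it was -0.026 and with quantile normalization -0.061.

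The difference followed the level in normal glands. The 377 regions with a mean linear position under 0.2 had a median difference of 0.05 on the log2 scale, the 25 between 0.2 and 0.5 of -1.45, the 26 between 0.5 and 0.8 of -1.72 and the 63 over 0.8 of -2.01. On the other autosomes these medians were 0.11, -1.08, -1.70 and -1.99. Chromosome 12 thus lay within 0.02 of the other autosomes in both upper bands. In the band under 0.2 and in that from 0.2 to 0.5 its median was the lowest of the 20 autosomes. In the latter band the other autosomes ranged from -1.37 to -0.66. The bands rest on the same normal glands that enter the difference, so part of this order is built in. With bands cut on the mean of all 20 arrays, the medians of chromosome 12 were 0.03, 0.10, -1.64 and -1.95. On the other autosomes they were then 0.09, 0.27, -0.97 and -1.95. Below chromosome 12 lay 1 other autosome in the band under 0.2 and 2 in the next.

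The mean difference of chromosome 12 came to -0.31 when the mean of the other autosomes in each band was weighted by the band sizes of chromosome 12. The over-0.8 band held 12.8% of its regions, against 7.35% elsewhere. On linear position the same band differed by a median of -0.04 only.

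**Figure D3:**
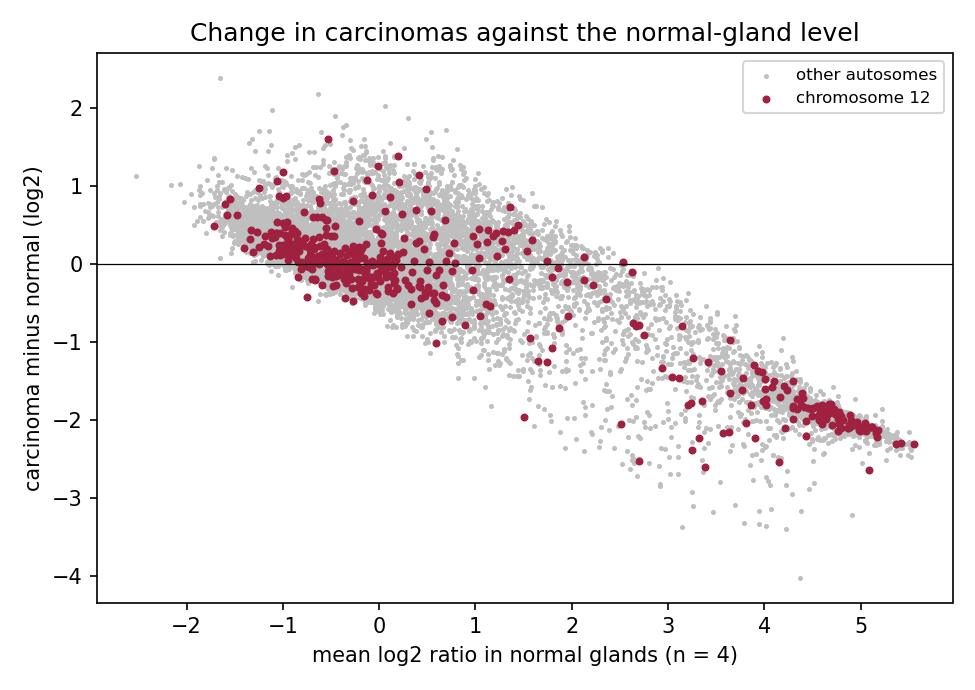
Difference in mean log2 ratio between carcinomas (n = 16) and normal glands (n = 4) for each region (vertical axis), against its mean in normal glands (horizontal axis), with chromosome 12 over the other autosomes. Regions of chromosome 12 lie in the same cloud, with a median difference of 0.05 in low islands and -2.01 in the highest ones.

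With limma over all 13556 regions and a Benjamini-Hochberg adjusted p under 0.05, 152 regions of chromosome 12 were called lower in carcinomas (31.0%) and 41 higher (8.35%). The background was 23.7% lower and 11.6% higher over all regions. These calls use the contrast by which the chromosome was chosen, and nothing is read from them. Without carcinomas 7 and 8 they came to 153 lower and 58 higher. The split turned over on linear position, with 35 called lower and 77 higher against backgrounds of 4.43% and 17.1%, and 25 of the regions lower on the log2 scale were higher there. All carcinomas lay below all normal glands in 104 regions (21.2%; background 15.6%), and above them in 8 (1.63%; background 1.76%).

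The region with the largest difference downwards was r41, at chr12:6245960-6246364, with 7 probes. Its log2 ratio was 6.23, 4.30, 5.10 and 4.70 in the normal glands (5.08 ± 0.83, SD, n = 4), and 1.03 at the lowest, 2.44 in the median and 3.61 at the highest in carcinomas (2.44 ± 0.71, SD, n = 16). All carcinomas lay below all normal glands. On linear position it stood at 1.34 ± 0.0592 in normal glands and 0.869 ± 0.328 in carcinomas, down to 0.177 in carcinoma 3. With loess its difference was 0.082 in place of -2.64.

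The next 4 in size were r357, r387, r340 and r405, with differences from -2.60 to -2.38 on the log2 scale. Of these, r340 at chr12:35116740-35117155 was the most nearly unmethylated in carcinomas. Its log2 ratio was 3.13, 2.16, 2.12 and 3.39 in the normal glands and ran from -0.36 over a median of -0.0026 to 0.91 in carcinomas. The groups did not overlap, and the mean went from 2.70 ± 0.66 (SD, n = 4) to 0.17 ± 0.39 (SD, n = 16). Its linear position was 0.263 in normal glands and 0.0821 in carcinomas, where none exceeded 0.5. In r387, at chr12:39397179-39397558, the normal glands stood at a linear position of 0.526, 0.765, 0.778 and 0.716, and 7 of 16 carcinomas stayed over 0.5, with a range of 0.0311 to 0.831.

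The 3 islands with the highest log2 ratio in normal glands, r353, r431 and r17, stayed far above the enrichment threshold in carcinomas. In r353, at chr12:35917893-35918566, the normal glands stood at 7.05, 4.59, 5.37 and 5.20 on the log2 scale, and the carcinomas between 2.35 and 4.22, with a median of 3.30. The groups did not overlap. All 3 were over 0.5 on all 16 carcinoma arrays, and r17 had the lowest mean linear position of the 3 there, 1.30.

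The longest island of the chromosome, r490, at chr12:46721844-46727464 near its far end, covered 5621 bases with 47 probes. Its log2 ratio was 4.59, 3.02, 3.51 and 3.45 in the normal glands (3.64 ± 0.67, SD, n = 4) and between 1.36 and 2.64 in carcinomas, with a median of 2.07. The groups did not overlap on this scale. Within it, 35 probes were over 3 and 10 under 1 in the mean of the normal glands, and the carcinoma mean was lower at all 47. On linear position it stood at 0.476 ± 0.0459 in normal glands and 0.555 ± 0.0727 in carcinomas, a difference in the other direction. Of the other 2 regions with the most probes, 29 each, r111 was low in every array and r164 stood at a mean linear position of 0.112 in normal glands and 0.161 in carcinomas. On the log2 scale r164 differed in the other direction. Its log2 ratio was 2.41, 1.41, 1.63 and 1.73 in the normal glands (1.80 ± 0.43, SD, n = 4). In carcinomas it was 0.71 ± 0.10 (SD, n = 16), and all 16 lay below every normal gland. Both regions averaged over unlike probes. In the mean of the normal glands, r164 had 10 probes over 3 and 14 under 1, and r111 had 1 over 3 and 27 under 1.

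On linear position, some islands that were low in normal glands were enriched in carcinomas. The level set to 1 stood at a lower log2 ratio in carcinomas, 2.72 ± 0.49 (SD, n = 16), than in normal glands, 4.67 ± 0.81 (SD, n = 4). A region could thus pass 0.5 with no rise in log2 ratio. In the 13 low regions over 0.5 in 5 to 7 carcinomas, log2 differences ran from -0.06 in r251 to 1.14 in r60. Of the 371 regions low in every normal gland, 48 (12.9%) were over 0.5 in at least 1 carcinoma, against 15.9% on the other autosomes, and 3 (0.809%) in 8 or more, against 2.37%. Without carcinomas 7 and 8, 42 (11.3%, against 14.8%) were over 0.5 in at least 1 carcinoma and 2 (0.539%, against 1.60%) in 8 or more. The number per carcinoma ran from 0 in carcinoma 2 to 34 in carcinoma 8, with 28 in carcinoma 15, 25 in carcinoma 11 and 22 in carcinoma 16. The share of chromosome 12 was below that of the other autosomes in 15 of the 16 carcinomas and above it in carcinoma 16, at 5.93% against 5.50%. These shares rest on the same contrast as the choice of the chromosome, and they were not tested.

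**Figure D4:**
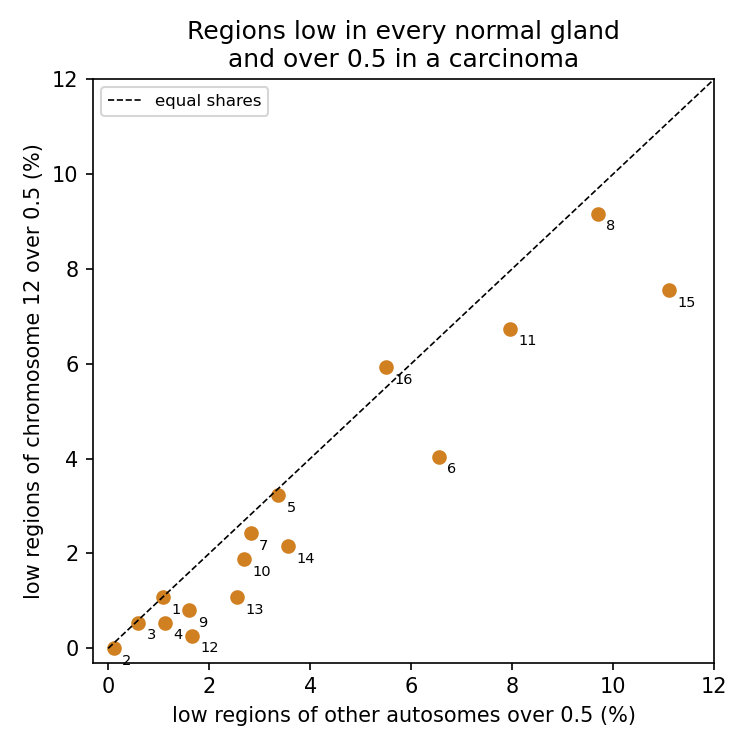
Share of regions low in every normal gland that were over 0.5 in each carcinoma (numbered points), on chromosome 12 (vertical axis, percent) against the other autosomes (horizontal axis, percent), with a dashed line of equal shares. The points run from 0 in carcinoma 2 to 9.16% in carcinoma 8, and 15 of 16 lie below the line.

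The 3 regions gained in 8 or more carcinomas were r142, r294 and r403. In r294, at chr12:33058180-33058446 with 3 probes, the linear position was 0.0383, 0.104, 0.0612 and 0.122 in the normal glands and between 0.294 and 1.08 in carcinomas, with a median of 0.619. The groups did not overlap on linear position, and 12 carcinomas were over 0.5. In r142, at chr12:15583161-15584200 with 8 probes, 11 carcinomas were over 0.5, and the groups did not overlap on linear position, with carcinomas from 0.243 to 0.863 (0.704 without carcinomas 7 and 8) and the normal glands at 0.0465, 0.152, 0.0818 and 0.0714. Without these 2 arrays, 11 of 14 carcinomas were over 0.5 in r294, 9 in r142 and 7 in r403.

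On the log2 scale the groups overlapped in all 3 of these regions. The regions were picked for high values in these same carcinomas, so their limma results are a description. In r294 the difference was 0.73 (limma, adjusted p = 0.0274), with 14 carcinomas above every normal gland and 1 below. In r142 it was 0.50 and was not called (limma, adjusted p = 0.0998), with 11 above and 0 below. In r403 it was 0.30 and was not called (limma, adjusted p = 0.494), with 6 above and 2 below.

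The region r142 lay in a stretch of islands with a higher linear position in carcinomas, r137 to r142, over 52.9 kilobases at chr12:15531340-15584200. A stretch was defined, after the values had been seen, as 4 or more neighbours with a mean linear position under 0.2 in normal glands and over 0.2 in carcinomas. The mean over its 6 regions was 0.0451, 0.111, 0.0723 and 0.0710 in the normal glands, and in carcinomas it was 0.188 at the lowest, 0.410 in the median and 0.743 at the highest. The groups did not overlap in this mean, with carcinoma 2 lowest and carcinoma 8 highest, and carcinoma 11 highest at 0.606 without carcinomas 7 and 8. On the log2 scale r137 was called lower in carcinomas, at -0.83 (limma, adjusted p = 0.0166). The other 5 had differences of 0.18 to 1.39, of which that of r139 was called. The stretch was picked on values of these same arrays, so these calls are a description too. A second stretch, r371 to r375, covered 12.9 kilobases at chr12:37324068-37336926 with 5 regions, at a mean of 0.0248 in normal glands and from 0.0604 in carcinoma 3 to 0.733 in carcinoma 8, or to 0.521 in carcinoma 16 without carcinomas 7 and 8. Such stretches held 251 regions on the other autosomes, 2.33% of their low regions, and chromosome 12 ranked ninth of the 20.

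The largest difference upwards was in r62, at chr12:8547976-8548839 with 9 probes. Its log2 ratio was -0.45, -0.39, -0.56 and -0.73 in the normal glands (-0.53 ± 0.15, SD, n = 4), and 0.23 at the lowest, 0.91 in the median and 2.63 at the highest in carcinomas (2.13 without carcinomas 7 and 8; 1.07 ± 0.69, SD, n = 16). All 16 carcinomas lay above all normal glands, though only 4 were over 0.5 in linear position, or 3 without carcinomas 7 and 8. The next were r139, r375, r378 and r446, with differences of 1.39, 1.26, 1.19 and 1.18, and r139 and r375 lay in the 2 stretches above. In r378 and r446 the groups overlapped, and 13 and 14 carcinomas lay above every normal gland.

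By the SD of linear position, carcinomas differed most from each other at r252, r277 and r290. In r252, at chr12:27252520-27253130, the linear position was 0.0575, 0.121, 0.0496 and 0.0787 in the normal glands and ran from 0.0340 to 1.20 in carcinomas, with a median of 0.186. On this scale carcinoma 15 was highest there and also in r277, at 1.37, and in r290, at 1.24. In r290 the normal glands ran from 0.322 to 0.599 and the carcinomas from 0.124 to 1.24, so carcinomas lay on both sides of the normal glands.

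The input channel carries DNA not selected for methylation, and its signal depends on how much DNA of the chromosome a sample held. Its values also moved with the centring, as given below. Relative to the mean of all autosomal probes, the mean log2 Cy3 signal over chromosome 12 was -0.0037 ± 0.0031 in the 4 normal glands (SD, n = 4) and 0.048 ± 0.071 in the 16 carcinomas (SD, n = 16). The normal glands ran from -0.0081 to -0.00086, and the carcinomas from -0.021 over a median of 0.022 to 0.255. The difference was 0.052 and did not pass the test (exact permutation test over all 4845 splits, two-sided, p = 0.13). Without carcinomas 7 and 8 it was 0.034 (exact permutation p = 0.12), and its sign turned to -0.028 when arrays were centred on the median of all probes (exact permutation p = 0.677).

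Carcinoma 7 carried a step in input signal along the chromosome. Its first 2 windows of 5 megabases stood at 0.017 and -0.021 relative to the normal glands, and its other 8 windows between 0.27 and 0.31. In bins of 1 megabase, the signal was -0.09 in bin 10 and 0.28 in bin 11. Between both sides of 10 megabases, its input signal differed by 0.31, against -0.013 to 0.061 in the other carcinomas and -0.0064 to 0.0050 in normal glands. The border was set after this array had been seen, so the step is a description of 1 sample. Its Cy5 signal stepped by 0.26 there, and its 66 regions beyond the border that were enriched in every normal gland stood at a mean log2 ratio of 2.03, against 1.99 on its other autosomes.

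No other carcinoma had such a step across 10 megabases, and a step elsewhere was not tested for. Carcinoma 4 ran from -0.12 in window 2 to 0.20 in window 10. Carcinomas 3, 8 and 16 stood at 0.14, 0.10 and 0.10 over the whole chromosome, while one of their other autosomes stood at -0.52, -0.37 and -0.37. The median of their other autosomes was 0.088, 0.086 and 0.046, and chromosome 12 had rank 3, 9 and 2 of 20 there. Input is centred on the autosomal mean, so a low chromosome raises the others, and its part in these values was not tested.

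None of the 10 windows was called with limma at an adjusted p under 0.05, and none of 529 windows genome-wide was (background 0.0%). At an unadjusted p under 0.05, windows 1 and 10 of chromosome 12 passed, against a background of 7.94%, and no other tool was run. Window 10 had the largest difference, 0.12 with an SE of 0.04 (limma, adjusted p = 0.531), and 15 of 16 carcinomas lay above every normal gland. It held the highest share of enriched regions but one. In the 10 carcinomas dimmer in Cy3 than every normal gland, window 10 stood at 0.027 to 0.24. In the 6 others it stood at 0.0017 to 0.31, and their highest value without carcinomas 7 and 8 was 0.126, in carcinoma 16. The part of signal level in window 10 was not tested.

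**Figure D5:**
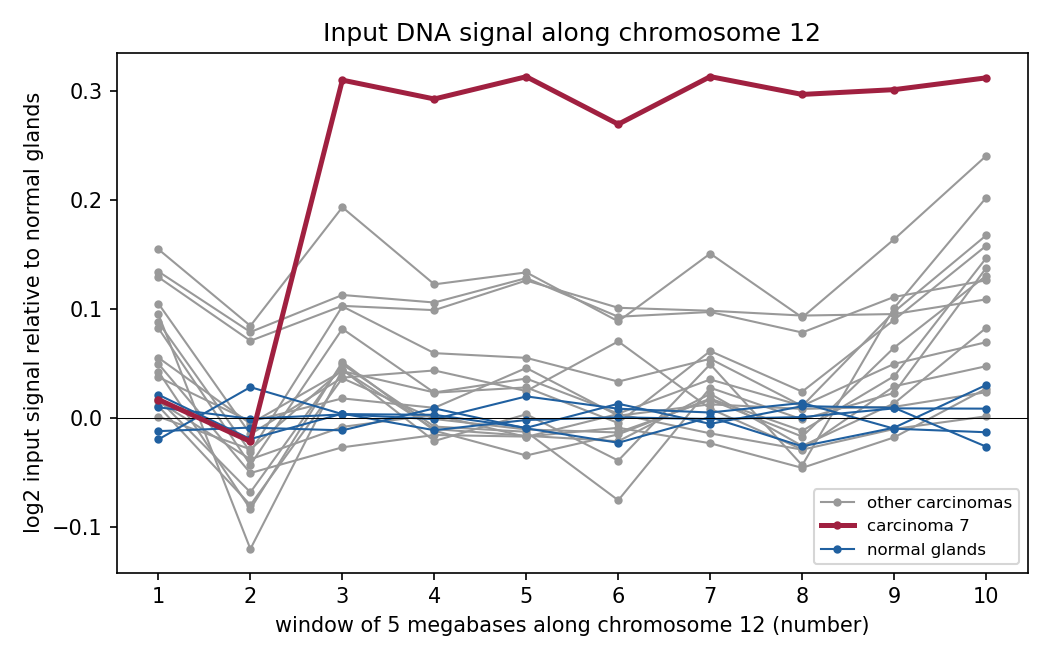
Mean log2 Cy3 input signal relative to the normal glands (vertical axis) in 10 windows of 5 megabases along chromosome 12 (horizontal axis, window number), 1 line per array. Carcinoma 7 stands between 0.27 and 0.31 from window 3 on and near 0 in windows 1 and 2, and the normal glands stay between -0.03 and 0.03.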

How the data were processed

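The deposited scanner files of 20 two-colour arrays were used. Per the file headers and the submitters' processing notes, the authors read them with Agilent Feature Extraction 10.7.3.1, which made each processed intensity by subtracting background and scaling the dyes. These deposited intensities were the start here. The authors' value table, which holds log2 ratios that are not centred (array medians -0.48 to -0.08), equalled the deposited log10 ratios of the scanner files after conversion, and served as an alternative. Direction was Cy5 over Cy3 on all arrays, per the labels. Outlier values (187, with 7 on chromosome 12) were set to missing, and a probe was kept if its input stood well above background on 10 or more arrays. Log2 ratios were centred on each array's median and averaged per region. The 79 shorter runs of chromosome 12, 28 of 1 probe and 51 of 2, and 33 probes placed on its unordered part were left out. Runs of 2 probes were over 0.5 in 7.35% of cases in normal glands and 16.2% in carcinomas, and regions of 3 probes in 11.4% and 15.8%.

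Regions and input windows (5 megabases, at least 10 probes) were tested with limma 3.58.1 in R 4.3.3 over the whole array with Benjamini-Hochberg adjustment, and the mean input signal with an exact permutation test. The fits were tested on simulated data. The 4 normal glands were scanned on days 2 and 3 (2 each), with 6 and 8 carcinomas, and 2 carcinomas on day 1. Normal glands and carcinomas shared none of the 10 slides, so group and slide cannot be fully told apart. The main fits held no block, and slide was a random block in an alternative fit only. Regions were named by a rule: the 5 largest rises and 5 largest falls past the threshold, the 3 highest in normal glands, the 3 with the most probes, the 3 with the largest SD over carcinomas, the longest rows, and the extreme windows. Regions gained in 8 or more carcinomas, lost regions and stretches were chosen after their values were seen. The members, lists and tests were chosen with earlier results of these data known. Other steps used pandas 2.3.3, numpy 2.4.6, scipy 1.17.1 and matplotlib 3.10.9 in Python 3.11.15. Alternatives covered normalization, background correction, the authors' table, filters, region size, thresholds, scan day, slide, replicate numbers and left-out arrays. The number of arrays limits the precision.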

Additional observations from a re-analysis of the deposited data

Results flagged for a closer look

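A single normal gland far from the other 3 was looked for in 32 sets of values of chromosome 12, and 2 sets held one, where chance gives about 1 in 20. In region r446, at chr12:43483884-43484354, normal gland 2 stood at a log2 ratio of -0.42, and the other 3 at -1.18, -1.19 and -1.20. This region is among the 5 largest rises. In input window 3, normal gland 4 stood at 0.047 in mean log2 input signal, below the other 3 glands, which lay close together.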

How the results depend on the processing

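Counts of regions called with limma on chromosome 12 (41 higher, 152 lower) moved with scale and normalization: 56 lower with loess, 67 lower with quantile normalization, 11 higher with normexp, 22 higher and 99 lower with at least 5 probes in a region, 77 higher and 35 lower on linear position, and 13 higher within scan day 2 and 13 within scan day 3. Leaving out 1 normal gland gave 21 to 37 higher and 135 to 142 lower, with 21 without normal gland 1 and 27 without normal gland 3. The labels do not say that shared replicate numbers pair the samples, and same-numbered deviations correlated at 0.34, -0.29, 0.10 and -0.04. With the replicate block over the 4 shared numbers, 27 regions were called higher, 1 input window was called, and the input difference was 0.047 (exact permutation p = 0.125, the smallest it can give).

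The enriched share in normal glands and carcinomas was 27.7% and 27.5% with loess, 21.0% in normal glands with quantile normalization, 21.1% and 27.3% at a threshold of 0.3, 15.0% and 18.7% at 0.7, and 30.3% and 29.2% for a log2 ratio over 1. The carcinoma share thus did not exceed the normal share with loess or on the log2 threshold. Without 1 array the shares ran from 18.1% to 18.7% and from 22.3% to 23.0%. The mean log2 difference was -0.026 with loess and -0.061 with quantile normalization, and ran from -0.40 to -0.30 without 1 array. The input difference was -0.028 with centring on the median of all probes, and ran from 0.038 to 0.056 without 1 array. No input window was called in any of these left-out fits. Of 356 values of the 19 named regions under alternatives, 18 changed sign: with loess r41 (0.082), r353 (0.24), r431 (0.24), r17 (0.17), r490 (0.11), r290 (0.27), r111 (-0.12) and r252 (0.12); on linear position r490 (0.079), r164 (0.050), r290 (0.27), r111 (-0.021) and r252 (0.27); with quantile normalization r111 (-0.049); with normexp r111 (-0.10) and r252 (0.072); with the replicate block r277 (-0.27); and within scan day 2 r252 (0.26). A further 27 no longer passed the threshold and 2 newly did. The cause of these changes was not tested. On the array with the dimmest Cy5 signal by this measure, 71.2% of the probes were well above background.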

Other observations

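In the RefSeq promoter table, of the other build GRCr8 and not matched to the islands here, chromosome 12 held 1065 promoters of 300 bases, from 250 bases before to 50 bases after the gene start. Of these, 36.9% were rich in CpG (a CpG ratio, observed over expected, of 0.6 or more, with GC making up 50% or more of bases), against 31.5% of 30942 promoters elsewhere. Its promoters had the highest mean number of CpG of the 20 autosomes, 13.6, and it ranked second in protein-coding genes per megabase, at 12.9.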
